A study of Homo sapiens with 2 samples.

Results

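Expression of 9 genes of pericellular proteolysis was followed across 2 RNA-seq libraries of H1299 cells, taken as the rows of the deposited gene table named PLAU, PLAUR, PLAT, SERPINE2, MMP14, MMP15, TIMP1, TIMP2 and TIMP3. They are 9 of the 38637 genes listed, and 8 of them averaged 1 CPM (count per 1000000) or more over the libraries. That held for 14559 genes in all, which are called measured below. H1299 is an established human cell line derived from a lymph node deposit of a non-small cell lung carcinoma. One library came from the control, whose treatment label reads none, and 1 from cells with PHF12 knockdown (KD). Both carry the genotype label wild type. PHF12 encodes a PHD finger protein that works with Sin3 and histone deacetylase complexes on chromatin. The sources used here do not say whether the control received a non-targeting oligonucleotide, or which oligonucleotides made the knockdown.

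Urokinase (the product of PLAU) is a secreted serine protease that binds its receptor uPAR (PLAUR) on the cell surface and cleaves plasminogen to plasmin, a broad protease that degrades fibrin and matrix and can activate matrix metalloproteinase (MMP) zymogens. Tissue-type activator (PLAT) makes plasmin mainly on fibrin, and serpins such as protease nexin-1 (SERPINE2) inhibit the activators. The membrane-anchored MT1-MMP and MT2-MMP (MMP14 and MMP15) cleave matrix at the cell surface, and the tissue inhibitors of metalloproteinases (TIMPs) block MMPs, while TIMP2 also serves MT1-MMP as an adaptor in the activation of pro-MMP2. In lung cancer this system is known for its part in invasion.

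The totals were 24740581 counts over 22485 genes for the control library and 26084594 counts over 22557 genes for the knockdown library. PHF12 itself was counted 947 times in the control and 756 times in the knockdown library, 75.3% of the control level after scaling (fold 0.753, 95% counting interval 0.683 to 0.829), and 11.0% of measured genes had a larger absolute log2 ratio. With 1 library per group there was no replicate error and no test, so each ratio below describes these 2 libraries and not the conditions. Its 95% interval covers counting error only. Vimentin (VIM), at 5349 and 4876 TPM (transcripts per 1000000, corrected for gene length), and the keratins KRT8 and KRT18 marked the line in both libraries. Fibroblast markers summed to 1.61 TPM (control) and 1.79 TPM (knockdown) (7 genes, LUM at 0) and endothelial markers to 3.02 and 2.48 TPM (6 genes). The 8 blood and macrophage markers summed to 260.4 and 322.4 TPM, of which CD68 alone gave 257 and 320, while PTPRC, CD3E and HBB had 0 counts; its part in the results was not tested.

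Urokinase and its receptor were the most abundant members that differed, and both were lower in the knockdown library. PLAU stood at 0.632 of its control level and PLAUR at 0.777, whereas PLAT, SERPINE2, MMP14 and TIMP1 had intervals that included a ratio of 1. TIMP2 was lower at 0.870. MMP15 was higher at 1.59 times its control level, from few counts, and TIMP3 had no count in either library. In bulk RNA, fewer cells expressing a gene and less RNA per cell cannot be told apart.

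**Figure D1:**
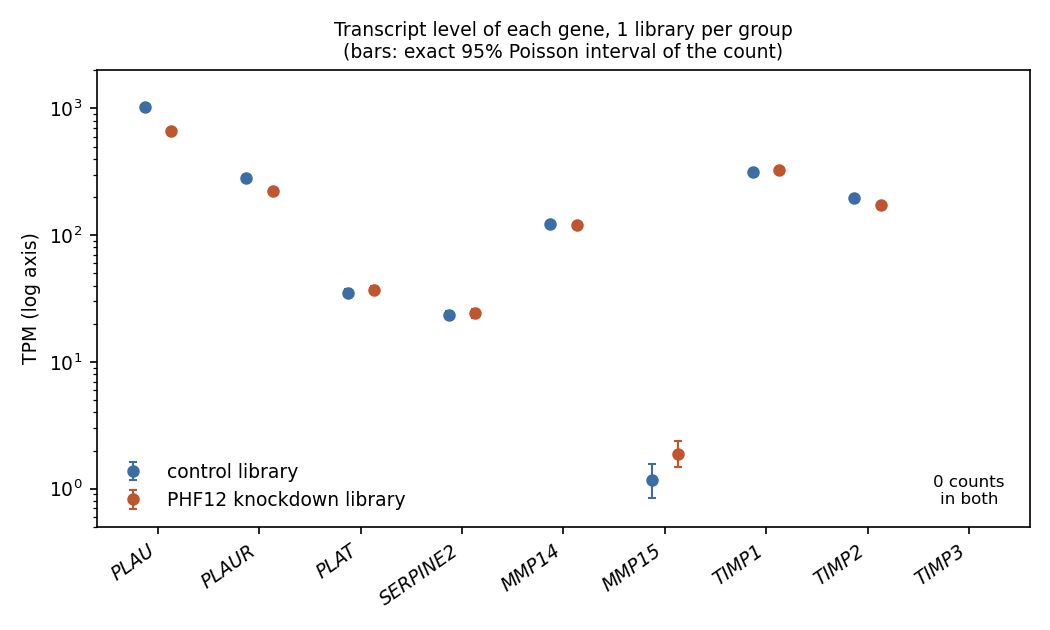
Level of each of the 9 genes in TPM (log axis) in the control library (blue) and the PHF12 knockdown library (orange), with exact 95% Poisson intervals of the counts as bars, mostly smaller than the points. PLAU is the highest point in both libraries and drops from 1029 to 661 TPM, while TIMP3 has 0 counts in both.

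PLAU, on the plus strand at chr10:73909182-73917497 (hg38), was counted 25362 times in the control library and 16992 times in the knockdown library. On the TPM scale its level was 1029 (95% interval 1016 to 1042) against 661 (651.5 to 671.4), so the 2 intervals lay far apart. The scaled ratio was 0.632 (0.620 to 0.644), a log2 difference of −0.66 (−0.69 to −0.63). Among measured genes 3.12% had a larger absolute log2 ratio and 1.61% were lower. PLAU ranked 122nd of all genes by TPM in the control library and 199th in the knockdown library. Abundant genes can be set beside it. Of 2369 genes averaging 100 CPM or more, 13 (0.549%) were at least 1.5-fold lower and 9 were lower than PLAU. Of the 95 genes with a mean CPM at or above that of PLAU, a set that includes PLAU, 2 (2.11%) were at least 1.5-fold lower. They were PLAU itself and PABPC1, a poly(A)-binding protein of the cytoplasm, at 0.516 (0.509 to 0.522).

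PLAU shares its locus with an antisense transcript, and the 2 could be mixed in these counts. The long noncoding RNA C10orf55 runs on the minus strand at chr10:73909969-73922777 and overlaps 916 of the 2950 exon bases of PLAU (31.1%) in GENCODE release 29. It received 1839 counts in the control library against 1295 in the knockdown library, a ratio of 0.664 (0.618 to 0.713). The strand setting of the counting is not given in the sources used here, so reads of the 2 genes cannot be told apart in the shared exons. The sum of both genes gave a log2 difference of −0.66, the same as PLAU alone. C10orf55 had far fewer counts than PLAU, so this sum could hardly differ. It does not show how shared reads were assigned.

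RefSeq lists 2 start sites for PLAU in GRCh38.p14, and the window from 250 bases before to 50 bases after the downstream one is printed because this gene gave the largest difference among the abundant members. It lies on the plus strand at chr10:73910882-73911181, and capitals mark the letters GGGCGG of the GC box, searched on both strands.
PLAU, downstream start: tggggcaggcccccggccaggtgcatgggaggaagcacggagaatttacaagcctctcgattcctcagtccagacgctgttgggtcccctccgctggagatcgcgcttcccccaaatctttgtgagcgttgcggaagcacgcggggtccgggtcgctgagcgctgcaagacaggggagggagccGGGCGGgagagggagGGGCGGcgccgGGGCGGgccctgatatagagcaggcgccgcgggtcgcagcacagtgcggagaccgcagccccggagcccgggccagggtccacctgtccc
The window holds 3 GC boxes, which begin 66, 51 and 40 bases before the start, and 45.0% of the 35116 RefSeq promoters of this length hold at least 1. MMP15 and TIMP3 hold 5 each, TIMP1 holds 2, MMP14 holds 1, and the 2 SERPINE2 windows hold 1 and 2. PLAUR and the other PLAU window hold none. Neither PLAU window, the other being chr10:73910360-73910659, holds the AP-1 letters TGANTCA (7.71% of all promoters), the variant TGAGTAA (2.57%) or the ETS letters CCGGAA (17.2%). The gene start listed with the deposited counts, chr10:73909182, lies before both windows and was not searched. These matches describe letters in a short window, and nothing about a factor follows from them.

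The 3′ UTR of PLAU, 932 bases long in GENCODE release 29, holds the AU-rich word TATTTAT at 2 places near its end. Such words are known as elements of short-lived mRNAs. Both windows are on the plus strand of GRCh38, at chr10:73917409-73917435 and chr10:73917429-73917455, and capitals mark the word.
PLAU, AU-rich word a: gtacactgaaTATTTATatttcactat
PLAU, AU-rich word b: tcactattttTATTTATatttttgtaa
PLAT and TIMP3 hold this word 2 times each and MMP15 holds it 1 time, so it occurs in members that were lower, higher and near their control level. It was present in the longest 3′ UTR of 36.2% of 12323 measured protein-coding genes, in 29.4% of those at least 1.5-fold lower and in 43.8% of those at least 1.5-fold higher. An earlier analysis of these data had picked out 7-base words from the 3′ UTRs of genes that differed, ACATCGA and CATCGAA from lower genes and TCGGAGA and ATCGGAG from higher genes, so their shares among such genes are no result. No member holds either of the first pair, which 2.71% of the measured coding genes do. MMP14 and TIMP3 each hold TCGGAGA 1 time, and 3.10% of the measured coding genes hold a word of the second pair.

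PLAUR, on the minus strand at chr19:43646095-43670197, went from 7830 counts in the control library to 6453 in the knockdown library. Its level was 280 TPM against 222, without overlap of the intervals. The ratio was 0.777 (0.752 to 0.803), a log2 difference of −0.36 (−0.41 to −0.32). The receptor was thus lower by less than its ligand. In TPM, PLAU stood at 3.67 times PLAUR (3.58 to 3.77) in the control library and at 2.99 times (2.90 to 3.07) in the knockdown library. Of the member promoters searched, PLAUR alone held the full AP-1 letters, at a place that begins 186 bases before the start in the minus-strand window chr19:43670120-43670419. TIMP1 held the variant TGAGTAA, beginning 101 bases before the start in the plus-strand window chrX:47582186-47582485. The 2 stretches are shown with the motif in capitals because PLAUR was lower while TIMP1 was near its control level.
PLAUR, AP-1 letters: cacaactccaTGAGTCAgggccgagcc
TIMP1, AP-1 variant: ggtgggtggaTGAGTAAtgcatccagg
MMP14 was the single member with the ETS letters, 1 match that begins 40 bases after the start. Promoter windows were found for 7 of the 9 members, 9 windows in all, and PLAT and TIMP2 were the other two.

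PLAT, the tissue-type activator, is on the minus strand at chr8:42174718-42207565. Its counts were 957 and 1057, or 35.1 against 37.2 TPM. The ratio of 1.04 had an interval of 0.953 to 1.14, so a difference was not detectable beyond counting error. The level of urokinase relative to PLAT was therefore lower. PLAU stood at 29.3 times PLAT (27.4 to 31.3) in TPM in the control library and at 17.8 times (16.7 to 18.9) in the knockdown library.

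SERPINE2, which encodes the inhibitor protease nexin-1, is on the minus strand at chr2:223975045-224039286. Control and knockdown counts were 672 and 719, or 23.5 against 24.1 TPM, a ratio of 1.01 (0.907 to 1.12). Its log2 ratio was among the smallest of all, and 94.9% of measured genes had a larger absolute value.

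**Figure D2:**
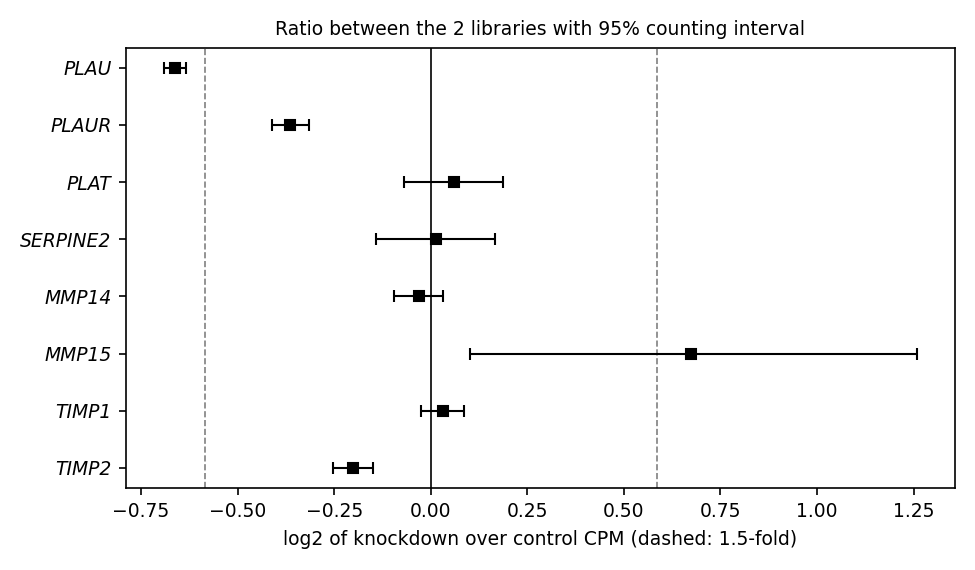
Log2 of knockdown over control CPM for the 8 measured genes, with 95% counting intervals as bars and dashed lines at a 1.5-fold difference. PLAU lies below the lower dashed line with its whole interval, PLAUR and TIMP2 lie below 0, and the wide interval of MMP15 runs from 0.10 to 1.26.

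MMP14, the gene of MT1-MMP, is on the plus strand at chr14:22836585-22847758. Its 4008 control counts compared with 4159 in the knockdown library (122 against 121 TPM), a ratio of 0.979 (0.937 to 1.02). Its interval included a ratio of 1, but it covers counting error only and does not bound a difference between the conditions. MMP15, the gene of MT2-MMP, is on the plus strand at chr16:58025754-58046901 and had only 42 control counts against 71 in the knockdown library. Its level was 1.16 against 1.89 TPM and its ratio 1.59 (1.07 to 2.39), a log2 difference of 0.67 (0.10 to 1.26), or 0.55 once 0.5 CPM was added to both levels. It was the member with the fewest counts above 0 and the widest interval. MMP14 stood at 104.7 times MMP15 in TPM (77.3 to 145.6) in the control library and at 64.3 times (50.9 to 82.5) in the knockdown library, so nearly all transcript of these 2 membrane MMPs was MMP14 in both.

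TIMP1, which inhibits most secreted MMPs, lies on the plus strand at chrX:47582408-47586789 within the gene SYN1 on the opposite strand. Its counts were 5149 in control and 5579 in knockdown cells, or 314.5 against 327.0 TPM, a ratio of 1.02 (0.984 to 1.06). SYN1 had 67 and 50 counts and shares 0 exon bases with TIMP1, so it could have added little. TIMP2, on the minus strand at chr17:78852977-78925387, had 6348 and 5859 counts, or 195.5 against 173 TPM, a ratio of 0.870 (0.840 to 0.902). CEP295NL, which overlaps it on the same strand and shares 198 exon bases, had 8 and 6 counts. TIMP2 was lower by more than its counting error, and 35.1% of measured genes had a larger absolute log2 ratio. TIMP3, which binds the matrix and inhibits ADAM proteases as well, lies at chr22:32801705-32863041 within SYN3 on the opposite strand, and both genes had 0 counts in both libraries. Taking 3 counts as the limit that a count of 0 allows, the level of TIMP3 was at most 0.0734 TPM in the control and 0.0704 TPM in the knockdown library.

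Transcript levels of inhibitors and proteases were compared per length, while their proteins and activities were not measured. TIMP1, TIMP2 and TIMP3 summed to 510.0 TPM in control and 500.1 TPM in knockdown cells. MMP14 was at 0.623 of TIMP2 (0.599 to 0.648) in the control library and at 0.700 (0.673 to 0.729) in the knockdown library. TIMP1 was at 1.61 times TIMP2 (1.55 to 1.67) and 1.89 times (1.82 to 1.96). Both shifts went with the lower TIMP2 level, since MMP14 and TIMP1 were near their control level. PLAU made up 51.4% of the summed TPM of the 9 genes in control and 42.2% in knockdown cells, and the sum itself went from 2001 to 1568. The order of levels was PLAU, TIMP1, PLAUR, TIMP2, MMP14, PLAT, SERPINE2, MMP15 and TIMP3 in both libraries, and the Poisson intervals of neighbours in that order did not overlap in either.

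At a rule of at least 1.5-fold, 1 of the 8 measured members was lower (PLAU, 12.5%), against 2.29% of the 14559 measured genes, and 1 was higher (MMP15, 12.5%), against 2.16%. By counting intervals that left out a ratio of 1, 3 members were lower (37.5%), against 20.9% of measured genes, and 1 was higher (12.5%), against 20.3%. With 8 genes, 1 gene more or less moves these shares by 12.5 percentage points, and nothing particular to the group is read from them. The median log2 ratio was −0.01 over the members, with 4 below and 4 above 0, and −0.01 over all measured genes.

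**Figure D3:**
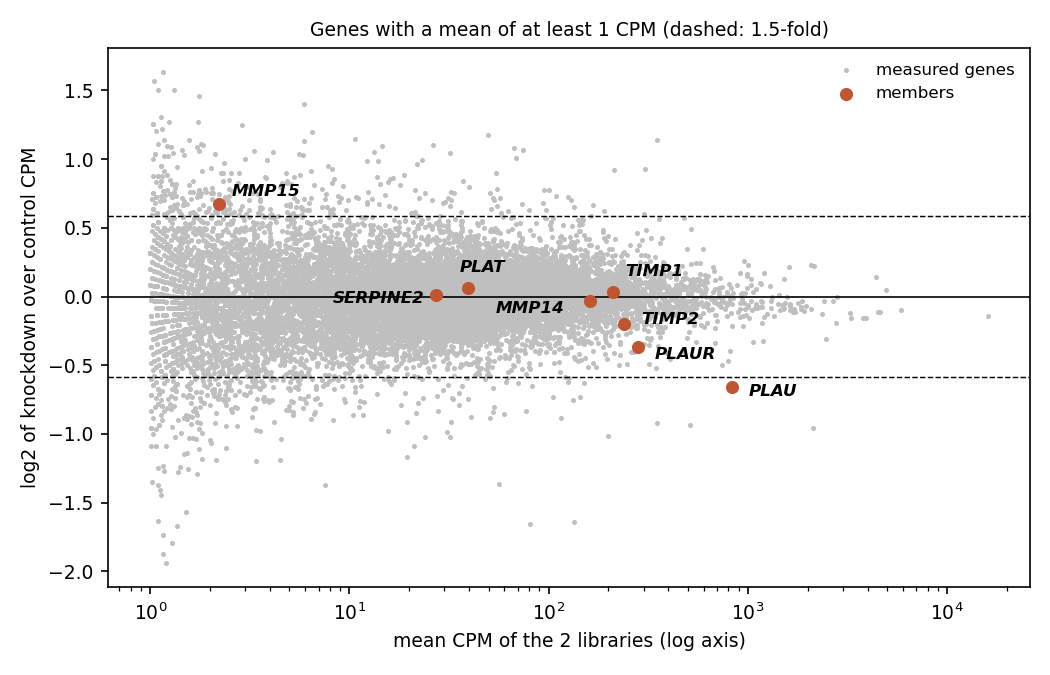
Log2 of knockdown over control CPM against mean CPM (log axis) for measured genes with a count in both libraries (grey) and the 8 measured members (orange), with dashed lines at a 1.5-fold difference. Scatter narrows with abundance, and PLAU lies below the lower dashed line where few grey points do.

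The 9 members lie on 9 chromosomes, so no pair of them shares a neighbourhood. Genes within 100 kb were looked at after the members' values were known. VCL, which encodes the adhesion protein vinculin and starts 80.6 kb from PLAU, had 16719 and 9274 counts, a ratio of 0.523 (0.510 to 0.537). VCL holds both words of the first pair named above, which PLAU lacks. Those words were picked from lower genes of these same data, so nothing about VCL or PLAU is read from this. The words share letters and could come from a single stretch. CAMK2G (a calcium-dependent kinase) and NDST2 (an enzyme of heparan sulfate synthesis), on the other side of PLAU, had ratios of 0.929 (0.862 to 1.002) and 0.946 (0.846 to 1.06). Low ratios at the locus were therefore those of PLAU, C10orf55 and VCL. Near PLAUR, CADM4 was at 0.772 (0.660 to 0.902) and SMG9 at 0.781 (0.758 to 0.804), while IRGQ was at 1.20 (1.12 to 1.27). Near MMP15, LOC101927556, a long noncoding RNA, was at 1.46 (1.33 to 1.61), higher like MMP15, while ZNF319 was at 0.697 (0.597 to 0.813), CFAP20 at 0.710 (0.642 to 0.785) and USB1 at 0.885 (0.819 to 0.956). Some neighbours of members near their control level differed too. AP3M2 near PLAT was at 0.7745 (0.684 to 0.877), WDFY1 near SERPINE2 at 0.836 (0.791 to 0.883) and ZNF41 near TIMP1 at 1.37 (1.17 to 1.61). Not all neighbours are named. Over all measured genes 20.9% were lower and 20.3% higher by interval, so nothing about the members is read from their neighbours.

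Over the 2 libraries, the coding genes nearest to PLAU in log2 CPM were PHLDA1, KRT8 and ERRFI1, at Euclidean distances of 0.17, 0.19 and 0.25. With 2 libraries this likeness means only a similar level and a similar ratio. PHLDA1, which encodes a pleckstrin homology-like protein, had a ratio of 0.724 (0.710 to 0.738). KRT8, a simple epithelial keratin, had 0.760 (0.746 to 0.775). ERRFI1, a feedback inhibitor of EGFR family receptors, had 0.710 (0.695 to 0.724).

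Other genes of plasminogen activation did not differ by 1.5-fold in either direction. Of 27 listed, 18 were measured, 4 were lower and 4 higher by their counting intervals, and the median log2 ratio was 0.02. Over all measured genes 20.9% were lower and 20.3% higher by interval, so nothing particular to this list is read from its counts. PLG, the gene of plasminogen itself, had 0 counts in both libraries. SERPINB6, an intracellular serpin, was higher with 4005 and 5713 counts, a ratio of 1.34 (1.29 to 1.40). F3, the gene of tissue factor, had 68 and 104 counts and a ratio of 1.44 (1.05 to 1.99). SERPINB2, which encodes a serpin that inhibits urokinase, had 31 and 23 counts, and its ratio of 0.700 (0.390 to 1.24) was within counting error. At 1.26 and 0.879 CPM, SERPINB2 averaged 1 CPM only through the control library, so the filter favoured a low ratio. ENO1, a glycolytic enzyme that also binds plasminogen, was the most abundant at 3045 and 2780 TPM and stood at 0.897 (0.889 to 0.906). LRP1, the receptor that clears urokinase bound to serpins, was at 0.902 (0.844 to 0.964). Of the annexin A2 complex that binds plasminogen, ANXA2 was at 0.947 (0.928 to 0.966) and S100A10 at 1.03 (0.980 to 1.08), within counting error.

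Other MMPs reached at most 26.65 TPM in these cells, the level of MMP1 in the control library. None of the 11 measured of 21 listed differed by 1.5-fold, with a median of −0.04. By interval 2 were lower and 1 higher, against 20.9% and 20.3% of all measured genes. MMP1, an interstitial collagenase and the most abundant of them, had 467 and 430 counts and a ratio of 0.868 (0.760 to 0.992). MMP2, the gelatinase whose proform MT1-MMP activates, had 58 and 66 counts and a ratio of 1.07 (0.743 to 1.55). The other gelatinase, MMP9, had 63 and 49 counts, 0.733 (0.494 to 1.08), and MMP25 had 31 and 23. At 1.26 and 0.879 CPM, MMP25 averaged 1 CPM only through the control library, so the filter favoured a low ratio. MMP16, a further membrane-type MMP, was higher at 1.23 (1.07 to 1.40). MMP17, also membrane-type, was lower at 0.868 (0.782 to 0.963), with 764 and 703 counts. Thus the gelatinase transcripts gave no difference beyond counting error at this depth. Of 7 other inhibitors and inducers 3 were measured. BSG, the MMP inducer basigin, was at 0.969 (0.9501 to 0.989) with 19440 and 19979 counts, RECK at 0.953 (0.838 to 1.08), and SPOCK2 at 1.05 from 26 and 29 counts.

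**Figure D4:**
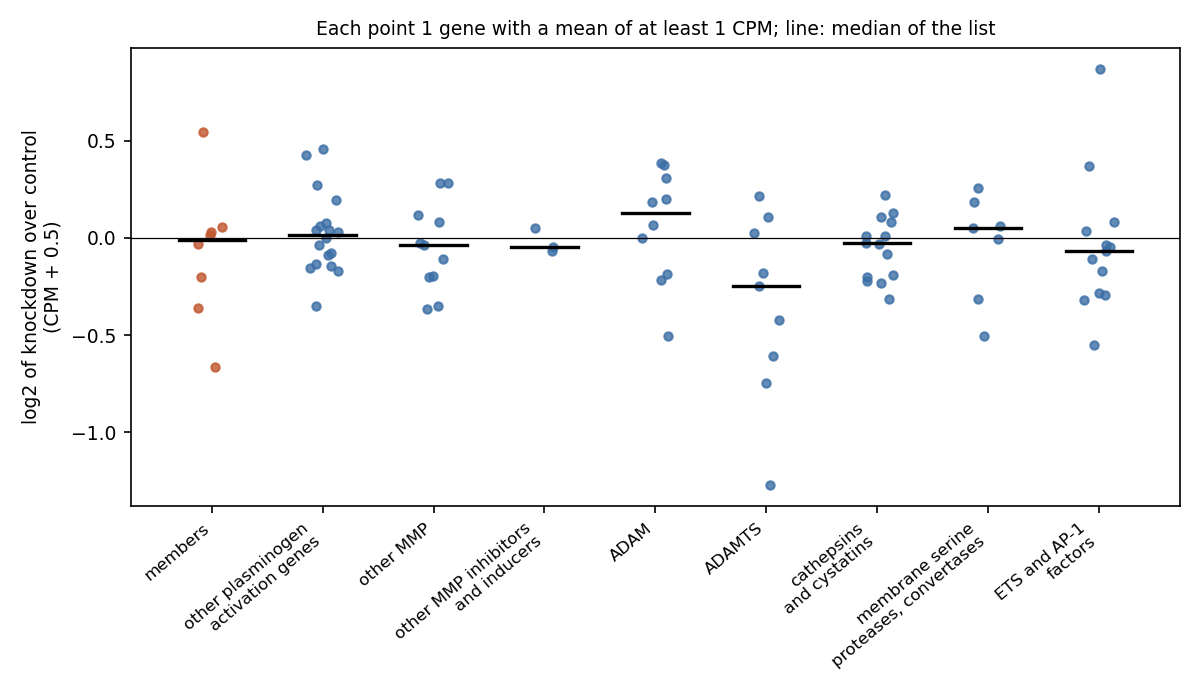
Log2 of knockdown over control for each measured gene of the 9 genes described (orange) and of 8 wider lists (blue), with 0.5 CPM added to both levels and the median of each list as a black line. The ADAMTS list has the lowest median (−0.25) and the ADAM list the highest (0.13).

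The related ADAM and ADAMTS families both held genes on either side of 0, with 3 ADAM genes below and 7 above, and 6 ADAMTS genes below and 3 above. Of 12 ADAM genes, 10 were measured, none differed by 1.5-fold, and the median was 0.13. By interval 2 were lower and 4 higher, against 20.9% and 20.3% of all measured genes. ADAM9 was the most abundant, with a ratio of 1.14 (1.09 to 1.19), ADAM19 was at 1.31 (1.13 to 1.52) and ADAM12 at 1.40 (0.919 to 2.16). ADAM22, which lacks protease activity, was lower at 0.700 (0.637 to 0.769). Of 19 ADAMTS genes, 9 were measured and 4 were at least 1.5-fold lower, 3 of them beyond counting error, with none higher. Over all measured genes 2.29% were at least 1.5-fold lower and 20.9% lower by interval. In control and knockdown, ADAMTS7 was at 1.91 and 0.497 CPM and ADAMTS19 at 1.30 and 0.841 CPM. Both averaged 1 CPM only through the control library, so the filter itself favoured a low ratio for them, and nothing is read from the count of lower genes. ADAMTS7 had 47 and 13 counts, a ratio of 0.261 (0.130 to 0.490), ADAMTS1 had 184 and 111, 0.569 (0.445 to 0.724), and ADAMTS15 had 71 and 45, 0.598 (0.402 to 0.881). ADAMTS3, the most abundant, was at 1.08 (0.943 to 1.24). The ADAMTS median was −0.25 with 0.5 CPM added, −0.11 with no filter on low counts, and −0.04 on the deposited TPM with the same filter and addition in TPM.

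No measured gene among the cathepsins and cystatins, or among the membrane serine proteases, convertases and inhibitors, differed by 1.5-fold. Of 23 cathepsins and cystatins, 14 were measured, with 3 lower and 3 higher by interval, none by 1.5-fold, and a median of −0.03. CSTB, a cytosolic cathepsin inhibitor, was the most abundant at 834.5 and 834.6 TPM, and CST3, the secreted cystatin C, was at 0.855 (0.805 to 0.908). CTSH was at 0.783 (0.588 to 1.04) and CTSV at 0.846 (0.711 to 1.01). Of 20 membrane serine proteases, convertases and inhibitors, 7 were measured, with 1 lower and 2 higher by interval and a median of 0.05. Over all measured genes 20.9% were lower and 20.3% higher by interval, so nothing particular to either list is read from these counts. HTRA1, a secreted serine protease, had 393 and 290 counts, 0.696 (0.596 to 0.812), and PRSS23 had 1544 and 1962, 1.20 (1.12 to 1.28). FURIN, the convertase that activates pro-MMP14, was at 1.03 (0.983 to 1.09), and SPINT1 at 0.764 (0.509 to 1.14).

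Of 14 ETS and AP-1 genes whose proteins are known to act on PLAU and MMP promoters, 13 were measured. By interval 7 were lower and 2 higher, against 20.9% and 20.3% of all measured genes, with a median of −0.07. Nothing particular to these lists is read from such counts. JUNB had 3332 and 2410 counts, a ratio of 0.682 (0.647 to 0.719), JUN was at 0.814 (0.776 to 0.854) and FOSL2 at 0.801 (0.749 to 0.856). FOSL1, the most abundant at 888 and 879 TPM, was at 0.973 (0.951 to 0.995). FOSB was the single gene past 1.5-fold, with 64 and 135 counts and a ratio of 1.99 (1.47 to 2.72), and FOS was at 1.31 (1.08 to 1.59). The JUN genes and FOSB thus lay on opposite sides of their control level. Whether these values bear on PLAU was not tested.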

How the data were processed

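Poly(A)-selected paired-end RNA-seq of 2 libraries was used, grouped by the treatment label. The submitters' processing notes name HISAT2, HTSeq and hg38; versions and the strand option are not stated there. The authors deposited raw counts and TPM per gene, per the file headers, and counts divided by listed length returned the TPM within 2.5e-11. Each row had a gene name. From the counts, edgeR 4.0.16 (limma 3.58.1, R 4.3.3) gave TMM factors of 0.997 (control) and 1.00 (knockdown), and CPM used the scaled totals. Ratios carry exact conditional Clopper-Pearson 95% intervals; level intervals are exact Poisson, and a count of 0 is given a limit of 3 counts. Both cover counting error only. Medians of lists use log2 of CPM plus 0.5. The computation was tested on simulated data, with scipy 1.17.1, numpy 2.4.6 and pandas 2.3.3 under Python 3.11.15, and figures were drawn with matplotlib 3.10.9.

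Members and lists were chosen with earlier results of these data known. Named were all members, PHF12, genes overlapping a member, and per list the 3 measured genes with the largest absolute log2 ratio and the one with the highest TPM; for PLAU also the 3 coding genes averaging 5 CPM or more nearest in log2 CPM. Further genes (PLG, LRP1, ANXA2, S100A10, MMP2, MMP17, JUN, FOSL2, PABPC1), neighbours, motifs and 3′ UTR words were added after their values were seen. Alternatives were total-count and DESeq2 1.42.0 scaling, the deposited TPM, other pseudocounts, filters, folds and interval levels, and, chosen after seeing the data, PLAU summed with C10orf55. Sequences are from RefSeq (GRCh38.p14) and GENCODE release 29. Some genes are not reported here.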

Additional observations from a re-analysis of the deposited data

How the results depend on the processing

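Of 88 alternative values computed for the members and lists, 87 were labelled the same. A member ratio was so labelled within its counting interval, and a count within 1.5 times. A list median was so labelled between the medians of its genes' interval bounds, a wide rule that does not check direction. For example, the ADAMTS medians of −0.247 and, on the deposited TPM, −0.044 were labelled the same. No ratio whose interval left out 1 changed direction, but other scalings shift all genes alike and so test little. The log2 ratio of a member shifted by at most 0.025 under other scalings. At a fold of 2 in place of 1.5, the number of members apart fell from 2 to 0, since PLAU and MMP15 lie between these folds. The median over the members, −0.009 on the log2 scale, was 0.009 with DESeq2 size factors and 0.015 on the deposited TPM, so its sign depends on the scaling. Depth limits MMP15, with 42 and 71 counts, and TIMP3, at 0 in both libraries. With 1 library per group, culture and library differences cannot be told apart from the knockdown. No paired analysis was possible because each group holds 1 library and the labels carry no replicate numbers.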
